A study of Mus musculus with 6 samples.

Results

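RNA-seq of mouse embryonic stem cells (mESCs) homozygous for a deletion of the *Wnt6* region on chromosome 1 was compared with that of wild-type mESCs. The comparison was defined by genotype, as 2 homozygous against 2 wild-type libraries of the 6 libraries in the series, with 2 heterozygous libraries set beside them. Of 55385 genes counted, 16563 reached 10 counts in 2 or more of the 4 libraries compared and were tested. All 3 genotypes derive from G4 mESCs, a hybrid line of 129/Sv and C57BL/6 parentage, and were grown with LIF, a cytokine that maintains the stem cell state, on CD1 feeder cells. The deletion was made with CRISPR-Cas9 and a pair of guide RNAs, and individual clones were screened, so that a genotype and the clone that carries it cannot be told apart. The labels name no separate cultures or clones for the replicates, and p-values therefore measure the spread between these libraries. The study asked what the removal of one anchor of a long-range Polycomb-associated loop, whose other end lies at *Pax3*, does to gene activity.

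Polycomb complexes deposit and bind repressive histone methylation over developmental genes, and distant regions that carry this mark can contact each other. Embryonic stem cells cultured with LIF express the network around *Pou5f1*, *Nanog* and *Sox2* and little of the genes of differentiated tissues. Feeder layers are usually growth-arrested embryonic fibroblasts, mesenchymal cells that secrete collagens, other matrix proteins, matrix-modifying enzymes and growth factors, and that carry actin stress fibers. The cells were lysed directly, and RNA of both cell types can be present in each library. In such bulk samples, fewer cells of a type and less RNA per cell cannot be told apart.

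The targeted genes were examined first. *Wnt6*, which encodes a secreted Wnt ligand (chr1:74771892-74785322, + strand, GRCm38), was counted 11 and 13 times in the wild-type, 6 and 4 times in the heterozygous and 0 times in either homozygous library. Against a floor of 3 counts per library, its level was at least 3.58-fold lower in the homozygous libraries (edgeR quasi-likelihood test, adjusted p = 6.6e-04). *Cdk5r2*, a neuronal activator of the kinase CDK5 that lies in the same interval (chr1:74854934-74857732, + strand), was counted 30 and 27 times in wild-type, 16 and 17 times in heterozygous and 1 and 2 times in homozygous cells. Levels are given as CPM, counts scaled to a common library size with TMM factors and not divided by gene length. The ratio of its CPM in homozygous over wild-type libraries was 0.0592, with a 95% counting interval of 0.0119 to 0.182. The other deleted genes were below the filter. *Wnt10a*, a further Wnt ligand, was counted 3 and 1 times in wild-type and 1 and 0 times in homozygous cells. *Fev*, a transcription factor of serotonergic neurons, had 3 and 1 against 0 and 0, and *Cryba2*, a lens crystallin, had 0 counts in each of the 6 libraries. *Pax3*, the neural crest and muscle transcription factor at the far end of the loop, was counted 4 and 6 times in wild-type, 11 and 5 times in heterozygous and 4 times in each homozygous library, and a difference was not detectable at this depth. The libraries held 23813912 to 28964706 counts, in which 3 counts amount to 0.102 to 0.131 CPM, and these floors and intervals cover counting error only.

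The many lower genes were led by matrix, secreted and mesenchymal genes, and the fewer higher genes were of mixed kinds and low level. A gene was called when its Benjamini-Hochberg adjusted p was below 0.05 and its log2 fold change, homozygous over wild-type, was beyond 1. By this rule 314 genes were lower, 1.9% of those tested, and 47 were higher, 0.284% of those tested. By adjusted p alone the directions were nearly even, with 1806 genes lower (10.9%) and 1828 higher (11%). These shares are the reference for each list count below. The median log2 fold change of all tested genes was -0.0053 (interquartile range -0.18 to 0.13). With library totals in place of TMM scaling, 31.9% of the calls by adjusted p alone were higher against 50.3% here, with 2525 genes lower and 1185 higher. By DESeq2, which gave an adjusted p for 11 of the 47 higher genes and 213 of the 314 lower genes, 192 genes were called lower and 13 higher. Without wild-type replicate 1, 19 of the 47 higher genes kept the call, and without wild-type replicate 2, 13 did.

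The lower genes differed from the higher ones in wild-type level, whereas the median size of change was similar. Their median log2 fold change was -1.25 (interquartile range -1.49 to -1.11), 237 of the 314 lay between 1 and 1.5 below wild-type on the log2 scale, and 26 lay more than 2 below. Their median wild-type level was 3.47 CPM, and 95 of them (30.3%) exceeded 10 CPM in wild-type. In those 95 the median log2 fold change was -1.19 (interquartile range -1.33 to -1.10). For the 47 higher genes the median log2 fold change was 1.24 (interquartile range 1.10 to 1.54), with a maximum of 2.18. Of these, 34 lay between 1 and 1.5 above wild-type on the log2 scale, and 2 lay more than 2 above. Their median wild-type level was 0.485 CPM, and 37 of them (78.7%) lay under 1 CPM in wild-type. No higher gene reached 10 CPM in wild-type, which is the lower group for these genes and the higher group for the 314. In the homozygous libraries *Zmat4* had 19.2 and 19.7 CPM and *Nefm* had 19.6 and 18.5 CPM. Of the 314 lower genes 53 stayed under 10 counts in both homozygous libraries, and of the 47 higher genes 10 stayed under 10 counts in both wild-type libraries. These passed the filter through the group in which they were higher. Of the genes named below, *Hoxb3*, *Hoxb6*, *Hoxb8*, *Osr1*, *Igf1*, *Il6*, *Zbp1*, *Slfn2*, *Prl2c2*, *Uty* and *Kdm5d* belong to the 53. *Zscan4c*, *Usp17le*, *Ccl28* and *Tdpoz8* belong to the 10. Their calls are not read as results about their lists, and list counts that hold them share this limit. Heterozygous over wild-type, the median log2 fold change was -0.52 for the 314 lower genes and 0.32 for the 47 higher genes. These medians share the wild-type libraries by which the genes were chosen.

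**Figure D1:**
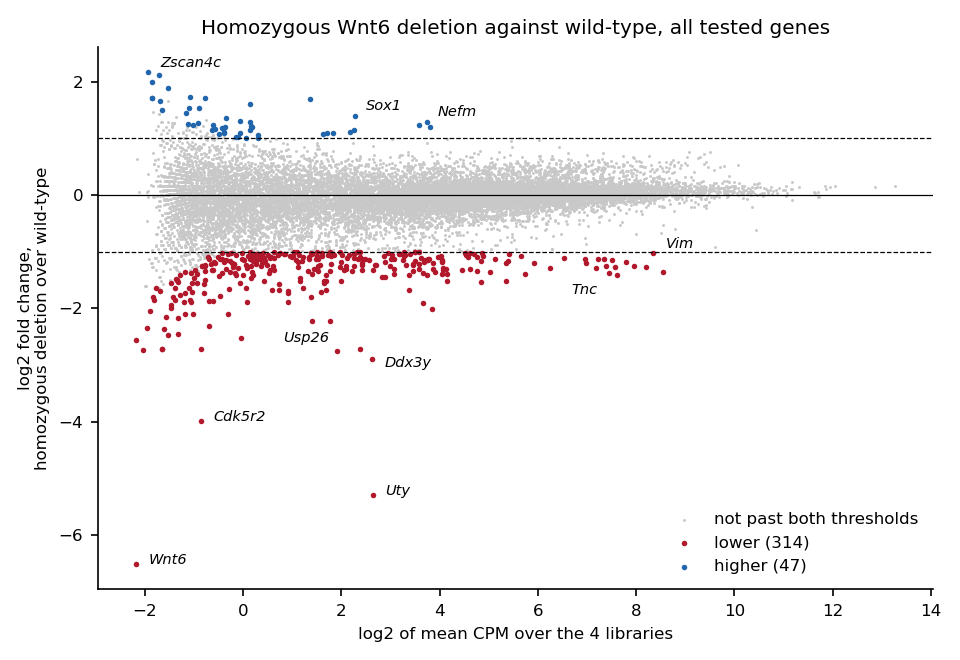
Log2 fold change, homozygous deletion over wild-type, against the log2 of mean CPM over the 4 libraries for 16563 tested genes (points), with the 314 lower genes in red, the 47 higher genes in blue and dashed lines at a log2 fold change of 1 in each direction. Lower genes extend to the high-CPM *Vim*, whereas most higher genes lie at low CPM and the highest of them, *Zmat4*, has a mean of 13.9 CPM.

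The fold threshold cut through a continuous range. The members just inside it on the lower side were *Adm* (-1.001), *Fam13a* (-1.001) and *Lgr6* (-1.003), and just outside lay *Serpinf1* (-0.9945), *Ncam1* (-0.9951) and *Runx2* (-0.9995), on the log2 scale. On the higher side *Tssk6* (1.001), *Tex13c2* (1.01) and *Rtn4rl2* (1.02) lay inside, and *Gm3336* (0.99), *Efhd1* (0.998) and *Tenm3* (0.9996) outside.

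Each called gene was then placed in 1 group by its known function, a sorting made after the values were seen and given as a description. Of the 314 lower genes, 271 were protein-coding by biotype. The largest groups were 62 protein-coding genes with no shared label and 42 RNA genes or pseudogenes. Named groups held 34 matrix proteins, 20 secreted proteases, crosslinking enzymes and their inhibitors, 33 secreted signals and 23 receptors. Others held 23 adhesion, junction and caveolar proteins, 16 transcription factors, 18 metabolic enzymes, 14 contractile and cytoskeletal proteins and 9 interferon or antigen-presentation proteins. These groups were not counted over all tested genes, so whether any exceeds its share there was not tested. Among the 47 higher genes, 17 were RNA genes or pseudogenes, 6 were germline or early-embryo genes, 4 were secreted signals and 4 were receptors. By this sorting no higher gene was placed in the matrix, adhesion or contractile and cytoskeletal groups, and the neurofilament gene *Nefm* formed a group of its own. This absence depends on the sorting and is not read as a result.

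**Figure D2:**
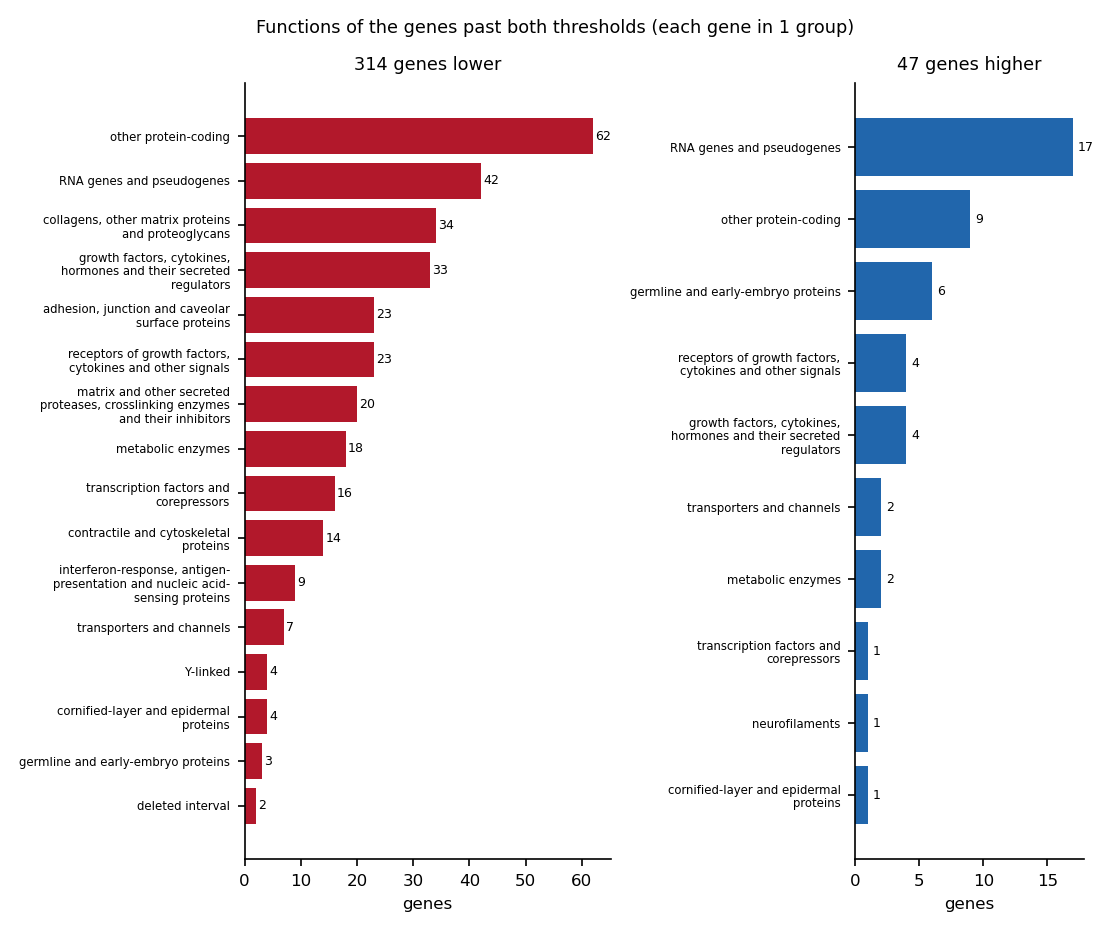
Number of genes past both thresholds in each functional group (horizontal bars, genes counted once) for the 314 lower genes (left) and the 47 higher genes (right). On the lower side matrix proteins (34) and secreted signals (33) follow the other coding genes (62) and the RNA genes and pseudogenes (42), and on the higher side RNA genes and pseudogenes (17) are the largest group.

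Fibrillar and other interstitial collagens fell together. Of the 16 tested, 10 were called lower and 13 were lower by adjusted p alone, against 1.9% and 10.9% of all tested genes, and none was higher by either rule. Their median log2 fold change was -1.11, against -0.0053 over all genes, and -0.59 in the heterozygous libraries. *Col1a1*, the type I collagen alpha 1 chain and the member with the highest CPM, had 425 and 408 CPM in the wild-type libraries, 298 and 263 in the heterozygous and 173 and 171 in the homozygous libraries (log2 fold change -1.28, SE 0.052, adjusted p = 1.4e-12). *Col1a2*, the partner chain, had 267 and 268 CPM in the wild-type libraries, 182 and 171 in the heterozygous and 115 and 106 in the homozygous libraries (log2 fold change -1.28, SE 0.048). In both chains the homozygous libraries lay below the heterozygous and these below the wild-type libraries, without overlap. *Col5a2*, a chain of the type V collagen that nucleates type I fibrils, had 238 and 234 CPM in the wild-type libraries, 166 and 159.7 in the heterozygous and 102 and 96.1 in the homozygous libraries (log2 fold change -1.25). *Col8a1*, a short-chain network collagen, had the largest decrease of the list, from 24.7 and 26.8 to 9.82 and 9.79 CPM (log2 fold change -1.39). The type VI chains *Col6a1*, *Col6a2* and *Col6a3*, which form beaded filaments around cells, had log2 fold changes of -1.34, -1.13 and -1.09. The 3 members that did not pass were *Col14a1* (0.16), *Col8a2* (0.16) and *Col15a1* (-0.21). Summed over the 16 genes, the collagens held 1291 to 1326 CPM in wild-type, 862 to 919 in heterozygous and 574 to 587 CPM in homozygous libraries.

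Glycoproteins and proteoglycans of the interstitial matrix showed a wider spread. Of 34 tested, 12 were called lower, 26 were lower and 2 higher by adjusted p alone, and the median log2 fold change was -0.72. *Tnc* encodes tenascin C, a matrix protein of embryonic and wounded tissue. It had the smallest p of all genes, with 292 and 278 CPM in the wild-type libraries, 173 and 172 in the heterozygous and 108 and 105 in the homozygous libraries (log2 fold change -1.42, SE 0.045, adjusted p = 1.4e-13). *Bgn*, a small leucine-rich proteoglycan, had 340.2 and 356 CPM in wild-type and 144 and 148 CPM in homozygous libraries (log2 fold change -1.25), and *Fbln2*, a fibulin of elastic matrix, had 307 and 313 CPM in wild-type and 141 and 131 CPM in homozygous libraries (log2 fold change -1.19). *Ltbp2*, of the latent TGF-beta binding protein family, had 78.4 and 75.3 CPM in wild-type and 29.2 and 29.6 CPM in homozygous libraries (log2 fold change -1.39), and *Ccdc80*, a secreted adhesion protein, had 42.2 and 43.4 CPM in wild-type and 14.8 and 14.6 CPM in homozygous libraries (log2 fold change -1.54). For each of these genes both homozygous libraries lay below both wild-type libraries. The members with the highest CPM changed less. *Fn1*, fibronectin, had 1716 and 1624 CPM in the wild-type libraries, 1310 and 1331 in the heterozygous and 1083 and 1089 in the homozygous libraries (log2 fold change -0.62). *Thbs1*, thrombospondin 1, had 1027 and 1023 CPM in the wild-type libraries, 808 and 834 in the heterozygous and 542 and 538 in the homozygous libraries (log2 fold change -0.92), and *Sparc*, a collagen-binding glycoprotein, had 466 and 489.5 CPM in the wild-type libraries, 480.4 and 487 in the heterozygous and 400 and 386 in the homozygous libraries (log2 fold change -0.28). *Matn2* and *Vcan*, a matrilin and the proteoglycan versican, rose by adjusted p alone, with log2 fold changes of 0.50 and 0.20. *Aebp1* lies outside the list and encodes a secreted collagen-binding protein. It fell from 106 and 109 to 44.2 and 43.6 CPM (log2 fold change -1.29).

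Enzymes that crosslink, cut or protect the matrix were lower in 10 of 39 tested genes by both thresholds and in 24 by adjusted p alone, with none higher and a median of -0.42. *Lox*, the lysyl oxidase that crosslinks collagen and elastin, had 247 and 253 CPM in the wild-type libraries, 169 and 173 in the heterozygous and 97.9 and 95.5 in the homozygous libraries (log2 fold change -1.37, SE 0.044, adjusted p = 1.4e-13). The relative *Loxl3* had 45.4 and 48.3 CPM in wild-type and 17.3 and 19.2 CPM in homozygous libraries (log2 fold change -1.35). *Timp2*, an inhibitor of metalloproteinases, had 204 and 208 CPM in wild-type and 84.96 and 84.6 CPM in homozygous libraries (log2 fold change -1.28), and the related *Timp1* fell from 217 and 227 to 105 and 99.0 CPM (log2 fold change -1.13). The collagen chaperone *Serpinh1*, which many cell types need for collagen folding, had 154 and 154 CPM in wild-type and 146 and 134 CPM in homozygous libraries (log2 fold change -0.14, adjusted p = 0.051) and did not pass. *Mmp2* (0.038), *Plat* (0.027), *Pcolce* (-0.10) and *Fkbp10* (-0.012) did not pass either, and the first pair lies on chromosome 8, described below.

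Basement membrane genes had no common direction. Of 14 tested, 1 was called lower, 5 were lower and 4 higher by adjusted p alone, and the median was -0.014. *Lama2*, a laminin chain of muscle and other mesenchymal basement membranes, was the gene called, with 3.85 and 3.88 CPM in wild-type and 1.70 and 1.96 CPM in homozygous libraries (log2 fold change -1.07). *Lama4* (-0.76), *Nid1* (-0.55), *Col4a5* (-0.97) and *Lamb1* (-0.16) were lower by adjusted p alone. *Hspg2*, perlecan, had 394 and 337 CPM in the wild-type libraries, 393 and 360 in the heterozygous and 442 and 410.4 in the homozygous libraries (log2 fold change 0.22, adjusted p = 0.013), and *Agrn*, agrin, had 388 and 354 CPM in the wild-type libraries, 415 and 386 in the heterozygous and 402 and 449.5 in the homozygous libraries (log2 fold change 0.20, adjusted p = 0.013). *Lamc1* and *Col4a1* were also higher by adjusted p alone, at 0.28 and 0.22, and *Col4a1* lies on chromosome 8. *Lama5* and *Col18a1*, a laminin and a collagen chain, had log2 fold changes of -0.0034 and 0.030 and did not pass.

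Genes of fibroblast identity, that is surface proteins and transcription factors by which mesenchymal cells are recognized, were lower in 12 of 24 tested by both thresholds and in 18 by adjusted p alone, with a median of -0.99 and none higher. *Thy1*, the CD90 surface antigen, had 22.7 and 25.1 CPM in the wild-type libraries, 15.6 and 15.9 in the heterozygous and 9.08 and 8.98 in the homozygous libraries (log2 fold change -1.40, SE 0.087, adjusted p = 9.7e-10). *Cdh11*, a mesenchymal cadherin, had 32.9 and 37.0 CPM in the wild-type libraries, 22.2 and 23.9 in the heterozygous and 13.7 and 14.6 in the homozygous libraries (log2 fold change -1.30). *Cd44*, the hyaluronan receptor, had 83.2 and 86.5 CPM in the wild-type libraries, 57.3 and 60.8 in the heterozygous and 35.7 and 38.4 in the homozygous libraries (log2 fold change -1.19). The receptors of platelet-derived growth factor, *Pdgfrb* and *Pdgfra*, fell past the threshold (-1.30 and -1.07), and the collagen receptor *Ddr2* by a similar amount (-1.224). *Prrx1*, a limb and craniofacial mesenchyme transcription factor, had 24.5 and 22.9 CPM in the wild-type libraries, 14.1 and 14.8 in the heterozygous and 10.2 and 9.25 in the homozygous libraries (log2 fold change -1.29). *Osr1* (-1.64), *Foxc2* (-1.55), *Tbx15* (-1.14), *Tbx18* (-1.12) and *Snai2* (-1.02) were other mesenchymal transcription factors among the calls. *Twist1* (-0.41), *Twist2* (-0.96) and *Foxf1* (-0.57) did not pass. Summed over the 24 genes, the list held 324 to 327 CPM in wild-type, 247 to 252 CPM in heterozygous and 174 CPM in each homozygous library. Of the 30 genes listed, *Fap*, *Tcf21*, *Meox1*, *Meox2*, *Osr2* and *Heyl* were below the filter, with 0 to 12 counts in any library. These marker levels moved with the matrix, enzyme, secreted-signal and adhesion genes of the lower side, and the part of feeder cells in those decreases was not tested.

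**Figure D3:**
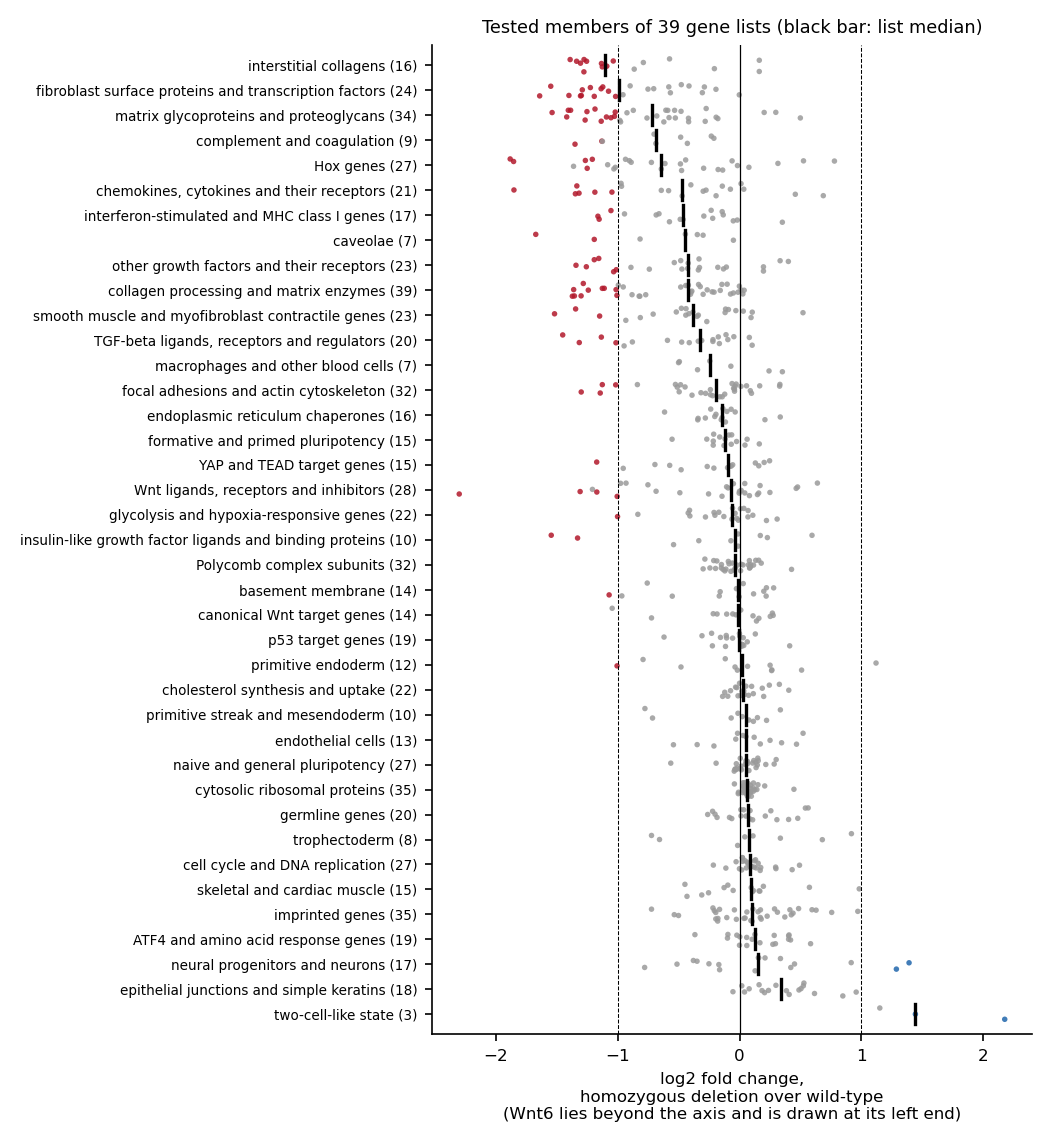
Log2 fold change, homozygous deletion over wild-type, of each tested member of 39 gene lists (points, red if called lower, blue if called higher, gray otherwise), with the list median as a black bar and the number of tested members in parentheses. Medians run from -1.11 for interstitial collagens through values near 0 for pluripotency and basement membrane genes to 0.34 for epithelial genes. Above them lies the two-cell-like state (1.44), whose 3 genes passed the filter through the homozygous libraries alone.

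Contractile genes of smooth muscle and myofibroblasts split by member. Of 23 tested, 3 were called lower, 13 were lower and 1 higher by adjusted p alone, and the median was -0.38, whereas the heterozygous median was 0.038. *Acta2*, smooth muscle alpha-actin, had 244 and 257 CPM in the wild-type libraries, 180 and 176 in the heterozygous and 116 and 111 in the homozygous libraries (log2 fold change -1.15, SE 0.046, adjusted p = 1.2e-12). *Actg2*, smooth muscle gamma-actin, had 5.35 and 6.54 CPM in wild-type and 2.01 and 2.11 CPM in homozygous libraries (log2 fold change -1.52), and *Myh11*, smooth muscle myosin, had 3.54 and 3.64 CPM in wild-type and 1.57 and 1.27 CPM in homozygous libraries (log2 fold change -1.34). Both also fell past the threshold. *Cald1*, caldesmon, had 311 and 312 CPM in the wild-type libraries, 340.1 and 348 in the heterozygous and 249.6 and 243 in the homozygous libraries, and *Tagln*, transgelin, had 27.7 and 29.2 CPM in the wild-type libraries, 29.7 and 29.7 in the heterozygous and 20.7 and 22.9 in the homozygous libraries, with log2 fold changes of -0.34 and -0.38. *Tpm1*, a tropomyosin expressed in many cell types, had 635 and 643 CPM in the wild-type libraries, 757 and 744 in the heterozygous and 662 and 644 in the homozygous libraries (log2 fold change 0.031, adjusted p = 0.64). Its heterozygous libraries lay above those of the other genotypes. *Synpo2*, an actin-bundling protein, was the member higher by adjusted p alone (0.52).

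Promoters of this list were searched for the CArG box, the element bound by serum response factor in many contractile genes, in RefSeq promoters of GRCm38.p6 from 250 bases before to 50 after the start, on both strands. The box was present in 4 of 18 list genes with a promoter (22.2%), against 189 of 11739 tested genes (1.61%) and 535 of 32851 promoters (1.63%). The 4 genes were *Myl9*, a myosin regulatory light chain (-0.44), *Filip1l*, a filamin-interacting protein (-0.93), and the LIM-domain proteins *Fhl1* (-0.42) and *Fhl2* (-0.52). Each was lower by adjusted p alone, as were 13 of the 23 tested list genes, and none passed the fold threshold. The called genes *Acta2*, *Actg2* and *Myh11* were not among the 4. They need not lack a box, because only exact matches in this stretch were counted and some list genes had no promoter here. A match is a description of the sequence and not evidence of binding. The 250 bases before the start are shown for 3 of these genes, the box in capitals, because the members of this list differed in their decreases. The *Myl9* stretch lies at chr2:156775214-156775463 on the + strand, that of *Filip1l* at chr16:57548992-57549241 on the + strand, and that of *Fhl2* at chr1:43163962-43164211 on the - strand.
Myl9: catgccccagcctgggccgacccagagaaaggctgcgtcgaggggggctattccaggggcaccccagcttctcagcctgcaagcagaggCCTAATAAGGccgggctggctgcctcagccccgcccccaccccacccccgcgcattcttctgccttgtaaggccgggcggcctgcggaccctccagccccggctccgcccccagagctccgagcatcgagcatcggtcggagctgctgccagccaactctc
Filip1l: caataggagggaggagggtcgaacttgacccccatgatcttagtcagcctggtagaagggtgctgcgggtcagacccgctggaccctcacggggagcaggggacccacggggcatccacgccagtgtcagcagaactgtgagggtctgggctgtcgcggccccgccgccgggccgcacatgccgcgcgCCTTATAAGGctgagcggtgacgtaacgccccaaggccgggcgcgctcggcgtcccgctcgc
Fhl2: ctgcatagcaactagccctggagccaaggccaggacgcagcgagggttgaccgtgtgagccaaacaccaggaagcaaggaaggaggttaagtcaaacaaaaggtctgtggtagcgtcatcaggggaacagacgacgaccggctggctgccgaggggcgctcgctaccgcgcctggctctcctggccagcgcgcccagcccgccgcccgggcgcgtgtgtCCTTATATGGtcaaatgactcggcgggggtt
The box began 161 bases before the start in *Myl9*, 62 in *Filip1l* and 31 in the *Fhl2* stretch shown. Another *Fhl2* promoter, at chr1:43196762-43197011 on the - strand and not shown, held a box 96 bases before its start.

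Caveolae, focal adhesions and the actin cytoskeleton showed decreases in some members beside members of high CPM that did not pass. Among 7 caveolar genes 2 were called lower and 4 were lower by adjusted p alone, with a median of -0.44. *Cav1*, the scaffold of caveolae, had 55.6 and 57.6 CPM in the wild-type libraries, 35.8 and 40.5 in the heterozygous and 24.6 and 24.9 in the homozygous libraries (log2 fold change -1.19), and *Cavin2*, which shapes them, had 15.5 and 16.1 CPM in the wild-type libraries, 6.76 and 8.13 in the heterozygous and 5.72 and 4.26 in the homozygous libraries (log2 fold change -1.67). Of 32 focal adhesion and actin genes, 4 were called lower, 16 were lower and 2 higher by adjusted p alone, and the median was -0.19. *Vim*, the mesenchymal intermediate filament vimentin, had 433 and 439.7 CPM in the wild-type libraries, 323 and 309 in the heterozygous and 216 and 216 in the homozygous libraries (log2 fold change -1.02, SE 0.042, adjusted p = 1.7e-12). *Itga11*, a collagen-binding integrin of fibroblasts, had 3.41 and 4.50 CPM in wild-type and 1.83 and 1.77 CPM in homozygous libraries (log2 fold change -1.13). *S100a4*, a calcium-binding protein of motile cells, had 11.99 and 11.98 CPM in wild-type and 5.54 and 4.26 CPM in homozygous libraries (log2 fold change -1.30), and the adhesion adaptor *Lims2* had 1.80 and 1.53 CPM in wild-type and 0.698 and 0.806 CPM in homozygous libraries (log2 fold change -1.14). *Flna*, *Actn4* and *Itgb1*, at 618.5 CPM or more in each library, belong to the actin and adhesion machinery of stem cells as well as fibroblasts. Their log2 fold changes were 0.057, 0.012 and 0.089, none passed, and *Itgb1* lies on chromosome 8.

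YAP and TEAD target genes, which respond to cell tension and density, divided likewise. Of 15 tested, 1 was called lower, 7 were lower and 4 higher by adjusted p alone, with a median of -0.098. *Ankrd1* was the gene called (15.6 and 15.6 CPM in wild-type and 6.94 and 6.91 CPM in homozygous libraries, log2 fold change -1.17). *Ccn2*, connective tissue growth factor, had 312 and 321 CPM in the wild-type libraries, 250.4 and 255 in the heterozygous and 194 and 196 in the homozygous libraries (log2 fold change -0.69), whereas its relative *Ccn1* had 219 and 225 CPM in the wild-type libraries, 253 and 260.4 in the heterozygous and 184 and 185 in the homozygous libraries (log2 fold change -0.27). In *Ccn1* the heterozygous libraries lay above wild-type and the homozygous libraries below. *Ajuba*, a LIM-domain regulator of the pathway, rose by adjusted p alone, from 368 and 367 to 431 and 415 CPM (log2 fold change 0.20).

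Secreted signals were the second large block of the lower genes. TGF-beta ligands, receptors and regulators were called lower in 4 of 20 tested genes and were lower in 11 by adjusted p alone, with none higher and a median of -0.32. *Inhba*, the activin A subunit, had 208 and 202 CPM in the wild-type libraries, 144 and 149 in the heterozygous and 94.95 and 92.4 in the homozygous libraries (log2 fold change -1.13, SE 0.045, adjusted p = 1.2e-12). *Tgfb3* had 10.4 and 10.3 CPM in wild-type and 4.06 and 3.53 CPM in homozygous libraries (log2 fold change -1.45). *Fst*, an activin-binding antagonist listed with primitive endoderm, had 15.5 and 16.4 CPM in the wild-type libraries, 14.97 and 14.7 in the heterozygous and 8.81 and 7.14 in the homozygous libraries (log2 fold change -1.005). Its heterozygous libraries lay just below the wild-type ones, and by DESeq2 its log2 fold change fell just short of the threshold.

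Other growth factors and their receptors were called lower in 6 of 23 tested genes, with 15 lower and 3 higher by adjusted p alone and a median of -0.43. *Csf1*, macrophage colony-stimulating factor, had 178 and 175 CPM in the wild-type libraries, 130.3 and 129 in the heterozygous and 76.4 and 78.3 in the homozygous libraries (log2 fold change -1.19, SE 0.045, adjusted p = 8.0e-13). *Fgf2*, basic fibroblast growth factor, had 38.99 and 38.6 CPM in the wild-type libraries, 26.6 and 27.96 in the heterozygous and 16.2 and 14.4 in the homozygous libraries (log2 fold change -1.34). *Ereg* (-1.16), a ligand of the EGF receptor, and *Fgf7* (-1.01), keratinocyte growth factor, were also called. *Fgf10*, a mesenchymal ligand of FGFR2b, had 1.43 and 1.72 CPM in the wild-type libraries, 1.53 and 1.81 in the heterozygous and 0.698 and 0.614 in the homozygous libraries (log2 fold change -1.26), so that only its homozygous libraries stood apart. *Hbegf*, a further EGF receptor ligand, had 71.0 and 75.2 CPM in the wild-type libraries, 70.8 and 74.8 in the heterozygous and 46.2 and 41.3 in the homozygous libraries (log2 fold change -0.74) and showed the same order. *Igf1* and *Igfbp7*, an insulin-like growth factor and a binding protein of the family, were the 2 called of 10 insulin-like growth factor genes, at -1.54 and -1.33. *Igfbp3*, the main carrier of these factors in serum, rose by adjusted p alone, with 75.4 and 76.9 CPM in the wild-type libraries, 100.4 and 100.1 in the heterozygous and 88.2 and 90.1 in the homozygous libraries (log2 fold change 0.23). The median of the 10 was -0.041.

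Cytokines and chemokines were called lower in 6 of 21 tested genes, with 12 lower and 1 higher by adjusted p alone and a median of -0.47. *Il6* had 0.511 and 0.705 CPM in wild-type and 0.174 and 0.153 CPM in homozygous libraries (log2 fold change -1.85), *Ccl2*, a monocyte chemokine, had 6.61 and 6.62 CPM in wild-type and 3.01 and 2.27 CPM in homozygous libraries (log2 fold change -1.33), and *Tnfrsf11b*, the decoy receptor osteoprotegerin, had 5.01 and 4.86 CPM in wild-type and 1.53 and 2.303 CPM in homozygous libraries (log2 fold change -1.35). *Il11* (-1.32) and the oncostatin M receptor *Osmr* (-1.19) were called as well. The receptor chains through which LIF acts on stem cells did not pass. *Il6st* had 73.4 and 75.2 CPM in wild-type and 67.5 and 67.2 CPM in homozygous libraries (log2 fold change -0.14), and *Lifr* had 42.4 and 43.7 CPM in wild-type and 43.6 and 43.2 CPM in homozygous libraries (log2 fold change 0.012). *Lif* itself was lower by adjusted p alone (-0.40). *Il33*, an alarmin, was the member higher by adjusted p alone (0.69).

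Interferon-stimulated and MHC class I genes were called lower in 3 of 17 tested genes and were lower in 10 by adjusted p alone, with none higher and a median of -0.46. *Psmb8*, an immunoproteasome subunit, had 2.997 and 2.82 CPM in the wild-type libraries, 3.18 and 2.33 in the heterozygous and 1.48 and 1.15 in the homozygous libraries (log2 fold change -1.15, adjusted p = 9.5e-04), and its heterozygous values overlapped those of wild-type. *Oas1a* had 1.77 and 2.08 CPM in the wild-type libraries, 1.17 and 0.903 in the heterozygous and 0.960 and 0.883 in the homozygous libraries (log2 fold change -1.05) and *Ifi27* had 1.57 and 1.65 CPM in the wild-type libraries, 1.49 and 1.28 in the heterozygous and 0.567 and 0.845 in the homozygous libraries (log2 fold change -1.16). *B2m* (-0.58), the light chain of MHC class I, and *H2-D1* (-0.68), a heavy chain, were lower by adjusted p alone. *Ifitm3*, *Ifitm2* and *Bst2* had log2 fold changes of -0.019, -0.14 and -0.051 and did not pass, and *Bst2* lies on chromosome 8. *Ifitm1*, of the same family as the first pair, was lower by adjusted p alone (-0.49). *Zbp1* (-2.72) and *Slfn2* (-1.80), an innate nucleic acid sensor and a schlafen protein, had the largest decreases among the 9 called genes of this kind and were named after their values were seen. Complement and coagulation genes were called lower in 2 of 9, with 8 lower by adjusted p alone and a median of -0.69. By DESeq2 the counts were 1 called and 3 lower for complement and coagulation, and 1 called and 6 lower for the interferon list. *Thbd*, thrombomodulin, had 20.5 and 22.9 CPM in wild-type and 8.99 and 8.02 CPM in homozygous libraries (log2 fold change -1.35), and *C1s1*, a complement protease, had 1.70 and 1.80 CPM in wild-type and 0.873 and 0.729 CPM in homozygous libraries (log2 fold change -1.13).

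The Wnt pathway was examined because of the deleted ligand. Of 28 Wnt ligands, receptors and inhibitors tested, 4 were called lower, 9 were lower and 4 higher by adjusted p alone, and the median was -0.072 whether *Wnt6* was entered at its fitted value or at its bound. By DESeq2, 3 were called lower, 4 were lower and 2 higher by adjusted p alone. Besides *Wnt6* the calls were *Wnt5a* (-1.004) and *Wnt11* (2.83 and 3.56 CPM in wild-type and 1.222 and 1.57 CPM in homozygous libraries, log2 fold change -1.17), ligands that act mainly through noncanonical routes, and the inhibitor *Dkk2* (2.32 and 2.04 CPM in wild-type and 1.004 and 0.768 CPM in homozygous libraries, log2 fold change -1.31). *Wnt7a* (0.64), *Wnt4* (0.46), *Sfrp1* (0.48) and *Lrp6* (0.16) were higher by adjusted p alone, and *Sfrp1* lies on chromosome 8. The receptors *Fzd7*, *Lrp5* and *Fzd5* had log2 fold changes of -0.050, -0.094 and 0.043 and did not pass. Of 14 canonical Wnt target genes, none was called and 3 were lower by adjusted p alone (1 by DESeq2), with a median of -0.0096. *Ccnd1*, cyclin D1, had 322 and 318 CPM in the wild-type libraries, 297 and 305 in the heterozygous and 292 and 271 in the homozygous libraries (log2 fold change -0.18), and *Lef1*, a nuclear effector of the pathway, had 32.5 and 34.9 CPM in the wild-type libraries, 29.6 and 29.96 in the heterozygous and 28.4 and 29.5 in the homozygous libraries (log2 fold change -0.22). *Axin2*, a feedback inhibitor induced by canonical signaling, was at -0.11 and did not pass, nor did *Tcf7* (-0.056) or *Znrf3* (0.16).

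Hox genes specify position along the body axis and are classical Polycomb targets. Of 39 listed, 27 passed the filter, 5 were called lower, 7 were lower and 1 higher by adjusted p alone, and the median was -0.64 (-0.38 in the heterozygous libraries). By DESeq2 none of the 27 was called, 0 were lower and 1 was higher by adjusted p alone. DESeq2 gave no adjusted p for *Hoxb3*, *Hoxb6*, *Hoxb8* and *Hoxa11*, so that it could not call these genes. *Hoxb6* had 0.817 and 0.548 CPM in wild-type and 0.218 and 0.153 CPM in homozygous libraries (log2 fold change -1.88), *Hoxb3* had 0.477 and 0.431 CPM in wild-type and 0.0873 and 0.153 CPM in homozygous libraries (log2 fold change -1.85), and *Hoxa11* had 1.498 and 0.940 CPM in the wild-type libraries, 0.966 and 1.24 in the heterozygous and 0.567 and 0.461 in the homozygous libraries (log2 fold change -1.26). *Hoxa9* and *Hoxb8* were called at -1.21 and -1.25. *Hoxb6*, *Hoxb3* and *Hoxb8* passed the filter through the wild-type libraries alone, and their calls are not read as a result about the family. *Hoxd13*, of the family the member with the highest CPM, had 6.88 and 7.79 CPM in wild-type and 4.80 and 5.91 CPM in homozygous libraries (log2 fold change -0.44). Summed over the tested members, the family held 31.4 to 32.1 CPM in wild-type, 27.7 to 28.2 in heterozygous and 23.7 to 23.9 CPM in homozygous libraries. Over the same libraries the 24 fibroblast markers summed to 324 to 327 CPM in wild-type and 174 CPM in homozygous libraries, and their part in the Hox decreases was not tested. Subunits of the Polycomb complexes themselves were lower in 4 (12.5%) and higher in 3 (9.38%) of 32 by adjusted p alone. These shares lie near the 10.9% and 11% of all tested genes. None was called, and the median was -0.040. *Jarid2*, a cofactor of PRC2, had 544 and 547 CPM in the wild-type libraries, 496 and 505 in the heterozygous and 622 and 595 in the homozygous libraries (log2 fold change 0.16), while *Rbbp4*, *Rbbp7* and *Phc1* had 0.091, 0.084 and 0.014 and did not pass.

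Among the 314 lower genes were some whose heterozygous values stayed near wild-type. Several of those named here were chosen after their values were seen. *Rhox5*, an X-linked homeobox gene of the reproductive tract and placenta, had 38.8 and 41.8 CPM in the wild-type libraries, 43.5 and 43.0 in the heterozygous and 18.7 and 19.5 in the homozygous libraries (log2 fold change -1.08), and *Pla2g1b*, a secreted phospholipase, had 59.4 and 62.0 CPM in the wild-type libraries, 66.4 and 64.9 in the heterozygous and 22.8 and 19.9 in the homozygous libraries (log2 fold change -1.51). *Slc15a2*, a peptide transporter, had 4.43 and 3.29 CPM in the wild-type libraries, 6.16 and 6.06 in the heterozygous and 1.14 and 1.77 in the homozygous libraries (log2 fold change -1.40), with the heterozygous libraries above wild-type. *Usp26*, an X-linked deubiquitinase of the testis, fell in steps, with 6.54 and 6.66 CPM in the wild-type libraries, 3.74 and 4.07 in the heterozygous and 0.916 and 1.04 in the homozygous libraries (log2 fold change -2.75, adjusted p = 2.2e-09). *Khdc3*, an oocyte and early-embryo protein, was at -1.70 against a heterozygous value of -0.33. *Mir100hg* and *Dnm3os*, host transcripts of microRNAs, were at -1.899 and -2.22, against heterozygous values of -0.28 and -0.27. Members of families with near-identical copies, such as *Prl2c2*, *Prl2c3*, *Serpina3h* and *Serpina3i*, are uncertain, since reads can be shared between copies.

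Sex-linked transcripts also lay among the lower genes. The 4 Y-linked genes listed were all called lower. *Uty*, a histone demethylase homolog, had 12.2 and 12.3 CPM in the wild-type libraries, 0.724 and 0.640 in the heterozygous and 0.305 and 0.307 in the homozygous libraries (log2 fold change -5.30, SE 0.20, adjusted p = 8.0e-13). *Ddx3y*, an RNA helicase, had 11.2 and 10.6 CPM in the wild-type libraries, 2.70 and 2.48 in the heterozygous and 1.53 and 1.42 in the homozygous libraries (log2 fold change -2.89), and *Eif2s3y*, a translation initiation factor, had 9.03 and 9.09 CPM in the wild-type libraries, 2.01 and 2.71 in the heterozygous and 1.53 and 1.23 in the homozygous libraries (log2 fold change -2.72). *Kdm5d*, another demethylase, had 1.02 and 0.626 CPM in wild-type and 0.393 and 0.307 CPM in homozygous libraries (log2 fold change -1.25). For the 3 genes of higher level, both deletion genotypes lay far below wild-type. The heterozygous log2 fold changes were -4.16, -2.08 and -1.93. Summed over the 4 genes, the level was 32.6 to 33.4 CPM in wild-type, 5.88 to 6.44 in heterozygous and 3.26 to 3.75 CPM in homozygous libraries. *Xist*, the RNA of X inactivation in female cells, had 13.5 and 10.7 CPM in the wild-type libraries, 10.02 and 10.2 in the heterozygous and 6.63 and 5.26 in the homozygous libraries (log2 fold change -1.04, SE 0.13), with heterozygous libraries just below wild-type.

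**Figure D4:**
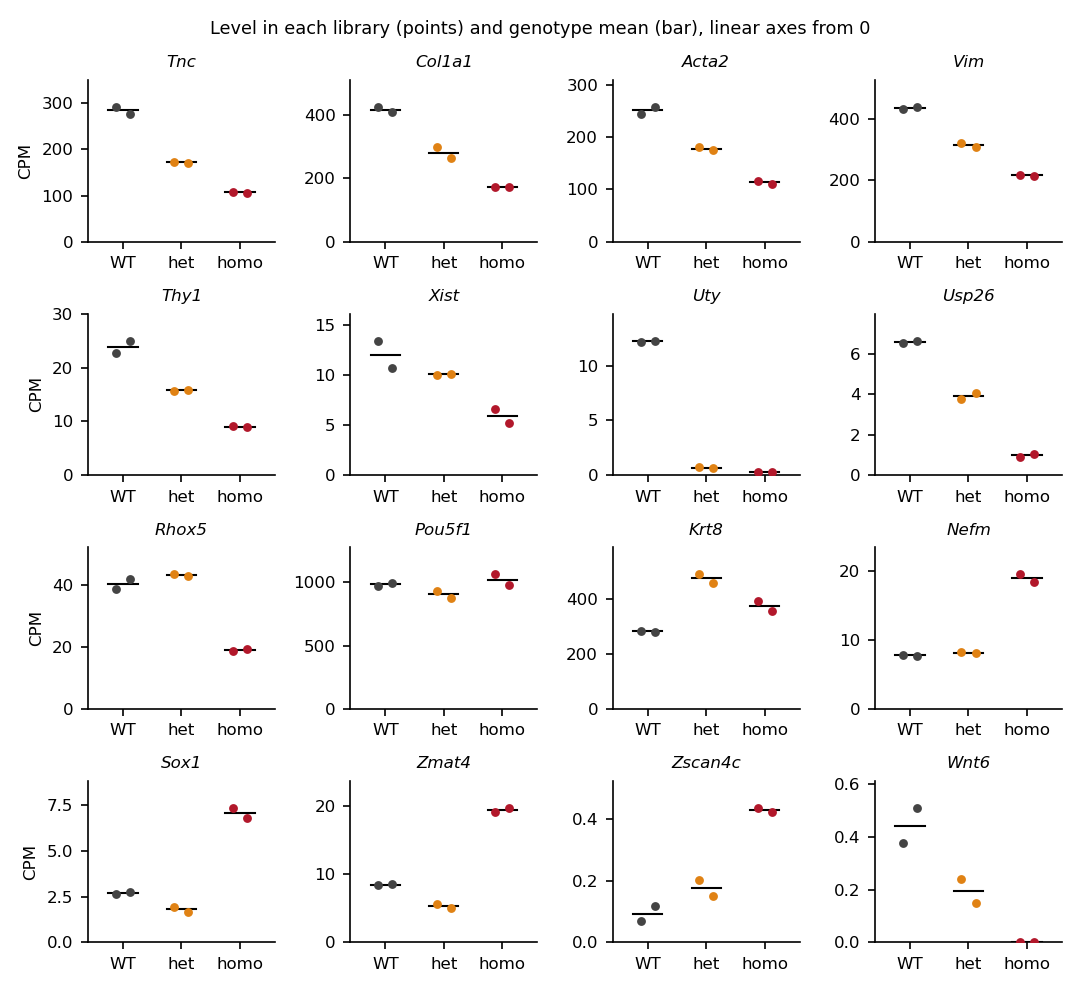
CPM (vertical axes, linear from 0) of 16 genes in each library (points, 2 per genotype) for wild-type (WT), heterozygous (het) and homozygous (homo) cells, with the genotype mean as a bar. *Tnc*, *Col1a1*, *Acta2*, *Vim* and *Thy1* step down from wild-type through heterozygous to homozygous libraries, *Rhox5* is low in homozygous libraries alone, *Pou5f1* overlaps between wild-type and homozygous, and *Nefm*, *Sox1* and *Zmat4* are high in homozygous libraries alone.

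Markers of other identities had few or no calls, at sizes where the shares over all tested genes (1.9% lower and 0.284% higher) also give few. Naive and general pluripotency genes had no call in 27 tested and a median of 0.053. By adjusted p alone 2 were lower (7.41%) and 5 higher (18.5%), against 10.9% and 11% of all tested genes. *Pou5f1*, the core pluripotency factor, had 974 and 992 CPM in the wild-type libraries, 932 and 878 in the heterozygous and 1064 and 975 in the homozygous libraries (log2 fold change 0.053, adjusted p = 0.46), *Nanog* was at 0.077 and *Sox2* at -0.044. *L1td1*, an RNA-binding protein of stem cells, had 959.5 and 992 CPM in the wild-type libraries, 947 and 972 in the heterozygous and 1092 and 1078 in the homozygous libraries (log2 fold change 0.15) and rose by adjusted p alone. *Gbx2* (-0.56) and *Klf4* (-0.19), transcription factors downstream of LIF, were the pair lower by adjusted p alone. The summed level of the list was 6294 to 6440 CPM in wild-type and 6486 to 6762 CPM in homozygous libraries. Formative and primed pluripotency genes had no call in 15, with 4 lower and 1 higher by adjusted p alone and a median of -0.12. *Pou3f1*, induced on leaving the naive state, was lower at -0.55, and the de novo methyltransferases *Dnmt3b* and *Dnmt3a* were at -0.068 and -0.065 without passing.

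Differentiated and extraembryonic lists had few calls, and so had all tested genes (1.9% lower and 0.284% higher). At these shares a list of this size holds few or no calls, so the counts are not read as results about these identities. Endothelial genes had none in 13, with *Flt1* lower (-0.54) and *Tal1* higher (0.52) by adjusted p alone. Skeletal and cardiac muscle genes had none in 15, with *Ttn*, titin, higher by adjusted p alone at 12.5 and 11.2 CPM in wild-type and 28.1 and 19.1 CPM in homozygous libraries (log2 fold change 0.98), beside *Mylpf* (0.20). Of 18 macrophage and blood genes 7 passed the filter, none was called, and *Laptm5* (-0.49) and *Cd68* (-0.50) were lower by adjusted p alone. Defining macrophage markers were at or near 0, with *Adgre1* at 0 counts in the 6 libraries and *C1qa*, *C1qb*, *C1qc* and *Tyrobp* at 0 to 2. Trophectoderm genes had no call in 8, with *Gata3* higher (0.92) and *Plet1* (-0.66) and *Ascl2* (-0.72) lower by adjusted p alone. Primitive streak genes had no call in 10, with *T* lower (-0.71) by adjusted p alone. Primitive endoderm genes had 1 call in 12, *Fst*, while *Lrp2*, an endocytic receptor, rose by adjusted p alone, with 242 and 207 CPM in wild-type and 335 and 304 CPM in homozygous libraries (log2 fold change 0.51).

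Epithelial junction genes and simple keratins rose by less than the fold threshold. Of 18 tested, none was called, 14 were higher and 0 lower by adjusted p alone, against 11% of all genes higher, and the median was 0.34 in homozygous and 0.32 in heterozygous libraries. *Krt8*, a keratin of simple epithelia, had 284 and 279.9 CPM in the wild-type libraries, 489 and 458 in the heterozygous and 392 and 356 in the homozygous libraries (log2 fold change 0.41), and its partner *Krt18* had 226 and 235 CPM in the wild-type libraries, 396 and 397 in the heterozygous and 291 and 275 in the homozygous libraries (log2 fold change 0.30). In both, the heterozygous libraries were the highest and the wild-type libraries the lowest, without overlap. *Cdh1*, E-cadherin, had 874 and 881 CPM in the wild-type libraries, 873 and 906 in the heterozygous and 1268 and 1264 in the homozygous libraries (log2 fold change 0.53) and lies on chromosome 8, with its heterozygous values overlapping wild-type. *Krt19* (0.96) and *Dsp* (0.85), a keratin and a desmosomal protein, had the largest increases of the list. *Epcam* had 265 and 274 CPM in wild-type and 276 and 270 CPM in homozygous libraries (log2 fold change 0.018) and did not pass. With library totals in place of TMM, 12 of the 18 were higher by adjusted p alone.

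The 47 higher genes included 2 of the 17 tested neural genes. *Nefm*, the medium neurofilament chain, had 7.87 and 7.71 CPM in the wild-type libraries, 8.29 and 8.05 in the heterozygous and 19.6 and 18.5 in the homozygous libraries (log2 fold change 1.29, SE 0.091, adjusted p = 5.1e-09). *Sox1*, a transcription factor of the early neural plate, had 2.62 and 2.74 CPM in the wild-type libraries, 1.93 and 1.66 in the heterozygous and 7.33 and 6.76 in the homozygous libraries (log2 fold change 1.39, SE 0.15, adjusted p = 9.0e-07) and lies on chromosome 8. In both, the homozygous libraries stood apart from the other 4, and the heterozygous *Sox1* values were the lowest. A further 6 neural genes were higher by adjusted p alone, namely *Pax6* (0.92), *Tubb3* (0.45, chromosome 8), *Nefl* (0.42), *Stmn2* (0.34), *Gap43* (0.21) and *Nes* (0.16), and 1, *Neurod1*, was lower (-0.51). The list median was 0.15.

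Some early-embryo and germline genes were called higher at very low counts, while *Usp26*, *Rhox5* and *Khdc3*, sorted with them, were called lower. Of 20 genes of the two-cell-like state, a transient state of a small share of mESCs, 3 passed the filter. They did so through the homozygous libraries alone, and the 2 calls among them are therefore not read as a result about the list. *Zscan4c*, which defines that state, was counted 2 and 3 times in wild-type, 5 and 4 times in heterozygous and 10 and 11 times in homozygous cells. Its ratio of homozygous over wild-type CPM was 4.72, with a 95% counting interval of 1.73 to 16. *Usp17le*, a deubiquitinase gene of a multicopy family, was counted 5 and 8 times in wild-type and 14 and 18 times in homozygous cells (log2 fold change 1.44, adjusted p = 0.041). It lost the call in 5 of 10 alternatives, with library totals and the replicate block among them. *Zscan4c* lost it when either wild-type library was left out. DESeq2 gave neither gene an adjusted p and so could call neither. *Zscan4a* was at 1.15 and did not pass (adjusted p = 0.12). The other 17 genes of the list had 9 or fewer counts in each library. Both families hold near-identical copies between which reads can be split, and these values are uncertain. *Tdpoz8* (1.71), *Zpbp* (1.27), *Terb1* (1.10) and *Tssk6* (1.001), genes of early embryos, sperm or meiosis named after their values were seen, were also called, and the last pair lies on chromosome 8. Of 20 listed germline genes none was called and 5 were higher by adjusted p alone, with a median of 0.069. They included *Ddx4*, the germ cell helicase, with 32.9 and 32.0 CPM in the wild-type libraries, 29.2 and 33.4 in the heterozygous and 39.5 and 40.7 in the homozygous libraries (log2 fold change 0.31), *Piwil2* (0.40) and *Tex15* (0.56, chromosome 8).

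Signaling and metabolic genes made up part of the remaining increases. *Fgf1*, acidic fibroblast growth factor, had 0.613 and 0.470 CPM in the wild-type libraries, 0.604 and 0.640 in the heterozygous and 1.75 and 1.61 in the homozygous libraries (log2 fold change 1.61, SE 0.30, adjusted p = 5.9e-04). *Hhip*, a Hedgehog-binding inhibitor on chromosome 8, had 2.11 and 1.88 CPM in the wild-type libraries, 1.77 and 1.43 in the heterozygous and 3.58 and 4.80 in the homozygous libraries (log2 fold change 1.07). *Ccl28*, an epithelial chemokine, had 0.136 and 0.157 CPM in wild-type and 0.436 and 0.653 CPM in homozygous libraries (log2 fold change 1.88), and *Wnt9b*, a Wnt ligand named after its values were seen, was at 1.24. *Nr3c2*, the mineralocorticoid receptor on chromosome 8, was at 1.70. *Aass*, the first enzyme of lysine breakdown, had 2.997 and 2.98 CPM in the wild-type libraries, 2.74 and 3.65 in the heterozygous and 7.11 and 6.10 in the homozygous libraries (log2 fold change 1.14), and *Cyp11a1*, which starts steroid synthesis, had 3.06 and 2.66 CPM in the wild-type libraries, 4.31 and 3.58 in the heterozygous and 6.24 and 6.14 in the homozygous libraries (log2 fold change 1.10). *Serpina3m*, a serine protease inhibitor of a multicopy family, had 1.12 and 1.33 CPM in the wild-type libraries, 1.85 and 1.35 in the heterozygous and 4.19 and 3.72 in the homozygous libraries (log2 fold change 1.69). *Crybg1*, a beta/gamma crystallin domain protein, had 7.19 and 7.01 CPM in the wild-type libraries, 14.0 and 15.2 in the heterozygous and 17.0 and 16.5 in the homozygous libraries (log2 fold change 1.24), so that both deletion genotypes lay above wild-type. *Zmat4*, a zinc finger gene on chromosome 8, had 8.38 and 8.497 CPM in the wild-type libraries, 5.59 and 5.08 in the heterozygous and 19.2 and 19.7 in the homozygous libraries (log2 fold change 1.21, SE 0.090, adjusted p = 1.0e-08), and *Dpp6*, an auxiliary subunit of potassium channels, had 2.21 and 1.96 CPM in the wild-type libraries, 1.85 and 1.58 in the heterozygous and 4.01 and 4.88 in the homozygous libraries (log2 fold change 1.09).

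Chromosome 8 held 879 of the tested genes and 14 of the 47 called higher (29.8%), against 7 of the 314 called lower (2.23%). The median log2 fold change of its genes was 0.39, with 89.6% above 0 and 547 (62.2%) higher by adjusted p alone, whereas the medians of the other autosomes and X ran from -0.048 to 0.015. In the heterozygous libraries the chromosome 8 median was -0.12. The part of this shift in the increases of *Sox1*, *Zmat4*, *Hhip*, *Nr3c2*, *Cdh1* and the other chromosome 8 genes named here was not tested. A fit without chromosomes 8 and Y, chosen after seeing the data, gave 286 lower and 32 higher genes.

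**Figure D5:**
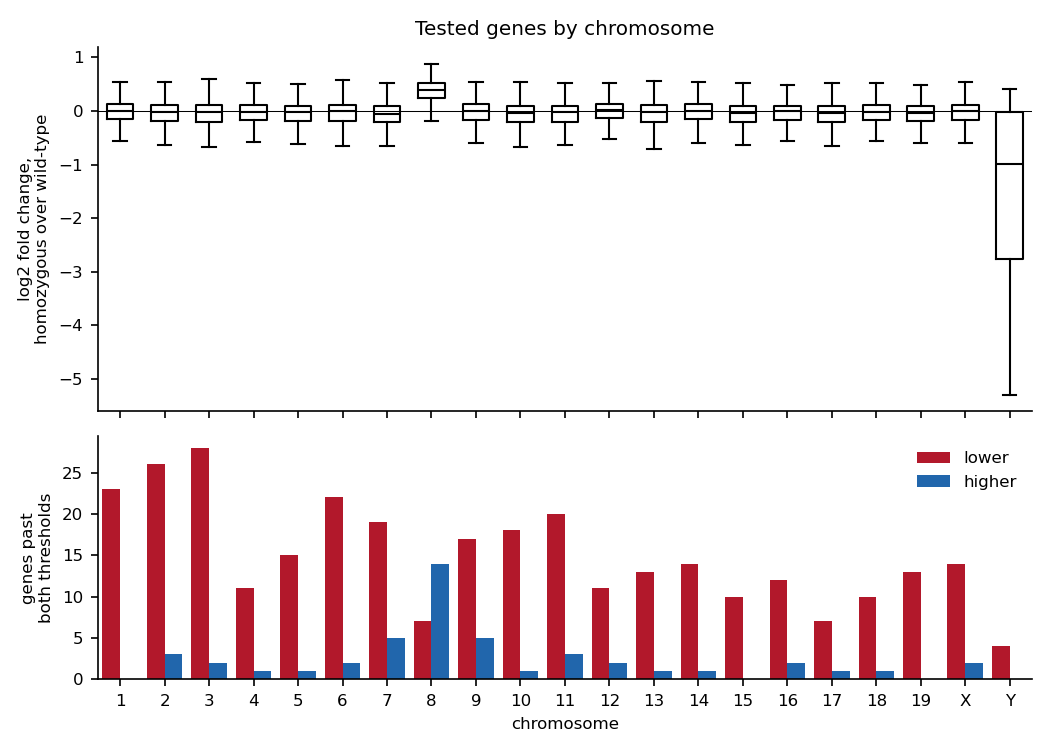
Log2 fold change of tested genes by chromosome (boxes: median and quartiles, whiskers to 1.5 times the interquartile range, outlying genes not drawn) and the number of genes called lower (red) and higher (blue) on each. Chromosome 8 is shifted upward as a whole (median 0.39) and holds 14 of the 47 higher genes, and of the 8 tested genes of chromosome Y, 4 were called lower.

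Metabolic, stress and housekeeping lists had few calls, as had all tested genes (1.9% lower and 0.284% higher). ATF4 and amino acid response genes were higher in 9 of 19 by adjusted p alone, with 1 lower, no call and a median of 0.13. *Slc7a5*, an amino acid transporter on chromosome 8, had 368 and 369.6 CPM in the wild-type libraries, 319.5 and 318 in the heterozygous and 569 and 537 in the homozygous libraries (log2 fold change 0.58), and *Psat1*, of serine synthesis, had 368 and 386 CPM in the wild-type libraries, 328 and 338 in the heterozygous and 512 and 486 in the homozygous libraries (log2 fold change 0.41). Cell cycle and replication genes were higher in 9 of 27 with 1 lower and a median of 0.085, among them *Mcm5*, a replicative helicase subunit on chromosome 8, with 584 and 591 CPM in the wild-type libraries, 503 and 500.3 in the heterozygous and 846 and 806 in the homozygous libraries (log2 fold change 0.49), whereas *Top2a* was at 0.024 and did not pass. Endoplasmic reticulum chaperones were lower in 10 and higher in 2 of 16 by adjusted p alone, with a median of -0.15. *Hspa5*, the chaperone BiP, had 731 and 742 CPM in the wild-type libraries, 716 and 726 in the heterozygous and 633 and 618 in the homozygous libraries (log2 fold change -0.24), and the 2 that rose, *Calr* (0.21) and *Herpud1* (0.33), both lie on chromosome 8. Imprinted genes were higher in 11 and lower in 5 of 35 (8 and 2 by DESeq2), with a median of 0.10. *Grb10*, an adaptor that dampens insulin signaling, had 394 and 405 CPM in the wild-type libraries, 413 and 417 in the heterozygous and 688 and 662 in the homozygous libraries (log2 fold change 0.76, adjusted p = 1.1e-10), and *Meg3*, a maternally expressed RNA, had 488 and 402 CPM in the wild-type libraries, 501 and 461 in the heterozygous and 233 and 379.7 in the homozygous libraries (log2 fold change -0.54). The *Meg3* value ran from -0.93 without homozygous replicate 2 to -0.23 without homozygous replicate 1, and it no longer passed by DESeq2, with robust dispersion or without wild-type replicate 1 (adjusted p up to 0.35). Glycolysis and hypoxia genes had 1 call in 22, *Adm* (7.22 and 6.58 CPM in wild-type and 3.58 and 3.34 CPM in homozygous libraries, log2 fold change -1.001), with 8 lower and 1 higher by adjusted p alone and a median of -0.060, and *Gapdh* was at 0.036. *Adm* kept the call with library totals but lost it by DESeq2, with DESeq2 size factors, with the replicate block and without chromosomes 8 and Y. Genes of p53 response (19 tested, median -0.00053), cholesterol synthesis (22, median 0.028) and cytosolic ribosomal proteins (35, median 0.061) had no call. By adjusted p alone, 4 were lower and 1 higher, 0 and 3, and 0 and 6 in these lists, respectively.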

How the data were processed

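PolyA RNA was sequenced from 6 libraries, 2 for each of 3 genotypes, and grouped by the submitters' labels. The study's methods describe triplicates, whereas the labels give 2 replicates per genotype. The values are raw read counts per gene as deposited by the authors, whose processing notes name Trimmomatic 0.39, STAR 2.6.1d, SAMtools 1.9, featureCounts 1.6.4, DESeq2 1.22.2 and mm10. The strand setting and annotation release are not given in the sources used here, so antisense and overlapping genes are uncertain. The 37 mitochondrial genes were at 0 in every library. Gene positions came from GENCODE M21 (GRCm38), in which 55144 of 55385 IDs matched. Of the tested genes, 11 had no position.

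Genes with 10 counts in 2 of the 4 libraries compared were fitted with edgeR 4.0.16 (quasi-likelihood test, TMM, all 6 libraries in 1 fit) in R 4.3.3, with Benjamini-Hochberg adjustment over all tested genes. SE is the log2 fold change divided by the square root of F. The steps were tested on simulated data. Named genes were the deleted genes and *Pax3*, the 15 of smallest p in each direction without overlap between groups, the 5 in each direction of highest CPM and of largest fold, and, of each list, up to 4 members of highest CPM and up to 3 called members of largest fold. Other members are named to complete a count, and some genes that this rule names are not reported here. The comparison, the 42 lists (760 genes) and the tests were chosen with earlier results of these data known.

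Replicate numbers did not pair the libraries. The correlation of deviations from group means between same-numbered libraries was -0.28 for wild-type with homozygous, 0.073 for wild-type with heterozygous and 0.067 for heterozygous with homozygous, over 9837 genes. Alternatives were DESeq2 1.42.0, other scalings, other filters, robust dispersion, the 4 libraries alone, a replicate block and leaving out each library.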

Additional observations from a re-analysis of the deposited data

Results flagged for a closer look

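Among the 15 lower and 15 higher genes of smallest p, 10 also differed between homozygous and heterozygous libraries in a direct edgeR quasi-likelihood test, past the same thresholds. This test uses the homozygous libraries by which the genes were chosen, and is given as values. Homozygous over heterozygous, the log2 fold change was -1.14 for *Uty* (adjusted p = 0.035), 1.219 for *Nefm* (adjusted p = 8.0e-09), 1.87 for *Zmat4* (adjusted p = 2.3e-10) and 1.97 for *Sox1* (adjusted p = 2.8e-08). It was 1.30 for *Serpina3m*, 1.04 for *Aass*, 1.38 for *Dpp6*, 1.40 for *Hhip*, 1.42 for *Fgf1* and 1.38 for the predicted gene *Gm5903*. *Uty* is Y-linked and was low in both deletion genotypes. *Zmat4*, *Sox1* and *Hhip* lie on chromosome 8, whose median was 0.39 in homozygous and -0.12 in heterozygous libraries, and the part of that shift was not tested.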

How the results depend on the processing

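The 314 lower and 47 higher genes kept their direction under each alternative that tested them. By DESeq2, 192 genes were called lower and 13 higher, and 979 were lower by adjusted p alone. Of the 314 lower genes 213 had an adjusted p there and 191 kept the call, and of the 47 higher genes 11 had one and 10 kept the call. With library totals as the only scaling, 1185 genes were higher by adjusted p alone, the median log2 fold change of all genes moved to -0.060, and 314 lower and 33 higher genes kept the call. Without a filter on low counts 71 genes were called higher, and with at least 1 CPM in 2 libraries 21 were, because that filter tested 22 of the 47. Leaving out 1 library gave 227 to 379 lower and 28 to 48 higher genes, and by adjusted p alone 1020 to 1801 lower and 1089 to 1771 higher. Without WT replicate 1, 30 genes were called higher (19 of the 47 kept the call), with 1020 lower and 1090 higher by adjusted p alone, and without WT replicate 2, 28 were called higher (13 of the 47), with 1179 and 1089 by adjusted p alone. In these fits the lone library was assumed to vary like the others. The replicate block gave 303 lower and 41 higher genes, and by adjusted p alone 1746 and 1706; the pairing check gave correlations of -0.28 to 0.073. A crossed block, chosen after seeing the data because of the negative correlation of wild-type with homozygous libraries, gave 299 lower and 40 higher genes. Robust dispersion, DESeq2 size factors and the 4 libraries alone gave 304 to 322 lower and 38 to 51 higher genes. Of the values for the named and all called genes under these alternatives, 5958 stayed on their side of the threshold. A further 553 lost it, 45 gained it and 0 reversed. Called genes were judged by both thresholds and the others by adjusted p alone. Alternatives that gave a gene no adjusted p were not counted, so losses of this kind are left out. The causes of these moves were otherwise not tested. Genes under about 1 CPM, which include 37 of the 47 higher genes, are limited by depth.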
